A study of Mus musculus with 9 samples.

Results

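Sertoli cells are the somatic cells of the seminiferous tubule, and 32 of their genes were followed through 3 kinds of male germ cell library. The genes were taken by symbol from a list, and all 32 were matched among the 21877 genes of the deposited tables. The libraries came from wild-type (WT) mouse testis. They hold pachytene spermatocytes (PAC), which are in meiotic prophase, their haploid products after meiosis, round spermatids (RS), and later spermatids in which the nucleus condenses and the tail forms, elongating spermatids (ES). Each cell type had 3 libraries of total RNA depleted of ribosomal RNA, called biological replicates by the submitters. The sources used here do not give the isolation method, the number of animals behind each library or their age.

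A Sertoli cell spans the tubule wall and holds germ cells of several stages at once in pockets of its cytoplasm. It seals the tubule with tight junctions, answers follicle-stimulating hormone and androgen, secretes carrier proteins and inhibin, and supplies ligands to germ cells. It is anchored to elongating spermatids by an actin-rich junction, the ectoplasmic specialization, and takes up the cytoplasm that they shed. For description the genes were grouped as transcription regulators, hormones with their receptors and enzymes, niche ligands, secreted and lysosomal proteins, junction and cytoskeleton proteins, and 2 others.

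The 250 bases before an annotated start of 3 genes are shown because these genes carry the contrast described below. Cst9 and Cst12, cystatin genes near each other on chromosome 2, moved almost in step. Amhr2, the receptor of anti-Müllerian hormone, parted from them in the comparisons with RS. Between ES and PAC it also rose (log2 2.22). The 3 were chosen after the values were seen. The start used for Amhr2 is not the first base of the annotated gene (chr15:102445002-102454640), so its window lies inside the gene. The sequences are RefSeq's on GRCm38.p6, plus strand, at chr2:148834897-148835146, chr2:148789115-148789364 and chr15:102445117-102445366 in the order printed, and capitals mark the motif match described after them.
Cst9: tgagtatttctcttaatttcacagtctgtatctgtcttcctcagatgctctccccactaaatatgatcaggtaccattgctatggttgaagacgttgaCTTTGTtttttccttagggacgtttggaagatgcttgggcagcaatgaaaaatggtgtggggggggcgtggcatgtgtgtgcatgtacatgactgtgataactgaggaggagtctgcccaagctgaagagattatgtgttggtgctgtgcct
Cst12: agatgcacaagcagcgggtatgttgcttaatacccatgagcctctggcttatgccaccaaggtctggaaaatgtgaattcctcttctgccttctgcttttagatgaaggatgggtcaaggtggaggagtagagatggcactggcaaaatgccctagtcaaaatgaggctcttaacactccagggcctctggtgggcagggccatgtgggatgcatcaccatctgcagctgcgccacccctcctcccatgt
Amhr2: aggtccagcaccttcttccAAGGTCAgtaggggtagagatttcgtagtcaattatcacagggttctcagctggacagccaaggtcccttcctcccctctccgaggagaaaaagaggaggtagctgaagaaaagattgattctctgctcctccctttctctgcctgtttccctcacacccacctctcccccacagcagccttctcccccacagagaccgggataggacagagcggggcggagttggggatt
Windows of this kind were found for 21 of the 32 genes. On both strands, 4 words were searched: AAGGTCA, read by NR5A1; AGATAA, read by GATA factors; and ACAAAG and AACAAT, read by SOX factors. The word ACAAAG was found in 3 of the 26 windows of these 21 genes (Cst9, Defb36 and Nr0b1), against 16.5% of all 32851 windows. In Cst9 it stands on the minus strand, 152 bases before the start. AAGGTCA was found in 2 of the 26 (Amhr2 and Cited1), against 4.08% of all windows. In Amhr2 it stands 231 bases before the start used here, inside the annotated gene. AGATAA was found in 2 of the 26 (Gdnf and Shbg, against 9.99% of all windows) and AACAAT in 2 (Ctsl and Rhox5, against 9.42%). Cst12 held none of the 4 words in its 250 bases.

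The libraries held between 22910156 and 33801617 counts, and 3 counts in a library were worth 0.0819 to 0.162 CPM (counts scaled to the size of the library, here after TMM scaling). The summed level of 7 pachytene genes was 1850 to 1930 CPM in PAC, 699 to 736 in RS and 590 to 739 in ES. That of 7 elongating spermatid genes was 1820 to 2580, 13800 to 15700 and 35000 to 66400 CPM. Of 6 round spermatid genes all 6 were called higher in RS than in PAC (38.2% of all features), and 5 were called lower and 1 higher in ES than in RS (22.1% and 24.5% of all features). Their summed level was nevertheless 2110 to 2270 CPM in RS and 2930 to 3680 in ES, because of Tssk6, a spermatid kinase gene with a mean of 626 CPM in RS and 2700 in ES. ES replicate 1 stood apart: transcripts assembled from reads held 11.2% of its counts, against 5% and 6.43% in the other ES libraries. Other ways of scaling the libraries moved the median log2 fold change of all 26030 features tested from 0.05 to -0.28 for ES against RS (total counts) and from -0.09 to -0.38 (total counts) or 0.21 (upper-quartile factors) for ES against PAC. For RS against PAC it moved from 0.11 to 0.42 with upper-quartile factors.

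Nearly all the Sertoli cell genes were highest in ES and lowest in RS. Of the 32 genes 30 had enough counts to be tested with edgeR's quasi-likelihood test, and a gene was called at an adjusted p below 0.05. Between ES and RS 28 were higher in ES and 0 lower, where 24.5% of all features were called higher. The median log2 fold change of the 30 genes was 4.71, from -0.13 to 7.03, a median of 26.2-fold. This size was smaller with FPKM values to which a constant was added before taking logs. It was smallest with the larger constant, as given in the section on processing. Between ES and PAC 27 were higher in ES and 0 lower (30.6% of all features higher), with a median of 2.41 and a range from -0.08 to 3.72. Between RS and PAC 25 were lower in RS and 0 higher (34.2% of all features lower), with a median of -2.0 and a range from -4.37 to 0.25. The counts of 0 were also 0 at an unadjusted p below 0.05 and with DESeq2. Without PAC replicate 1, however, Amhr2 was called higher in RS than in PAC (0.65 on the log2 scale, adjusted p = 0.0411, edgeR). The 3 comparisons share libraries and are not independent of each other. Sox9, Rhox5, Rhox8, Shbg, Hsd17b1 and Slc38a5 had too few counts outside ES and passed the filter for low counts through their ES libraries. In a fit of RS and PAC alone 24 of the genes passed it. For them a call higher in ES leans on that filter, which removed Amh, whose ES libraries were below PAC. Without the filter 29 of 32 genes were called higher in ES than in RS and 27 higher than in PAC. With a minimum count of 50 these were 23 and 23 of 24. In bulk libraries, more cells of a type and more RNA per cell cannot be told apart.

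In 28 of the 30 tested genes every ES library was above every RS library (30.2% of all features), and in 28 every ES library was above every PAC library (32% of all features). In 21 every RS library was below every PAC library (37% of all features). The counts with ES carry the same limit from the filter. Leaving out ES replicate 1 left 28, 27 and 25 genes called in the 3 comparisons, the same numbers as with it.

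**Figure D1:**
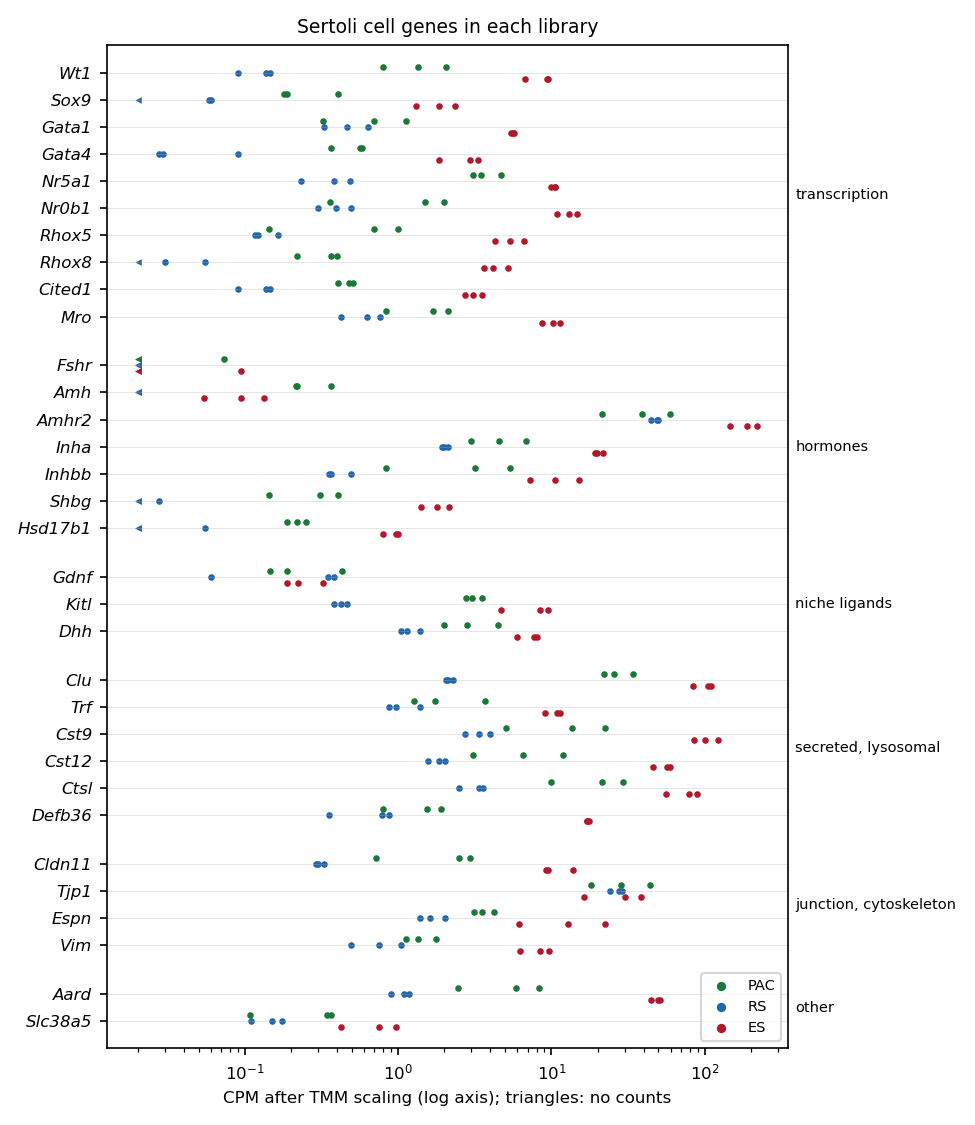
Level of each of the 32 genes in each library, in CPM after TMM scaling on a log axis; points are single libraries, triangles mark libraries with no counts, and genes are grouped by role. The ES points lie to the right of the RS points in most rows, and Tjp1 and Gdnf are the tested genes whose points overlap in all 3 comparisons.

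The 10 genes grouped as transcription regulators were all called higher in ES than in RS and than in PAC (24.5% and 30.6% of all features). Of them 9 were called lower in RS than in PAC (34.2% of all features). Sox9, Rhox5 and Rhox8 among them passed the filter for low counts through their ES libraries. Wt1, a zinc finger factor that maintains Sertoli cell identity, was at 2.05, 1.35 and 0.793 CPM in PAC, 0.0904, 0.137 and 0.146 in RS, and 6.76, 9.50 and 9.42 in ES. No library of one cell type reached those of another. Its log2 fold change was 6.05 (SE 0.42, adjusted p = 2.71e-06) between ES and RS and 2.60 (SE 0.32, adjusted p = 2.8e-05) between ES and PAC. Sox9, the factor that turns supporting cells to the Sertoli fate, was rarer. It had 0.187, 0.402 and 0.180 CPM in PAC, 0.0603, 0 and 0.0584 in RS, and 1.30, 2.35 and 1.85 in ES. Its RS values rest on 4 counts in all.

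Nr5a1, a nuclear receptor of steroidogenic and Sertoli cells, rose less over PAC than the other regulators. It was at 3.45, 4.71 and 3.10 CPM in PAC, 0.482, 0.382 and 0.234 in RS, and 10.6, 10.5 and 10 in ES, so the groups were apart but ES and PAC were only 2.76-fold apart (log2 1.47, SE 0.24, adjusted p = 0.000197). Nr0b1, an orphan nuclear receptor that represses NR5A1 targets, was at 1.99, 1.5 and 0.360 CPM in PAC, 0.392, 0.3 and 0.496 in RS, and 10.9, 13.0 and 14.7 in ES. Here PAC replicate 3 lay among the RS libraries, and the call between RS and PAC (adjusted p = 0.0101) was lost without PAC replicate 1 (0.0566). Its fold change between ES and PAC was 9.93 (log2 3.31, SE 0.44, adjusted p = 5.91e-05).

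Gata1, a GATA factor of Sertoli cells in particular stages of the tubule, was the regulator with the smallest difference between RS and PAC. It had 1.12, 0.694 and 0.324 CPM in PAC, 0.633, 0.328 and 0.467 in RS, and 5.73, 5.64 and 5.44 in ES. PAC and RS overlapped (log2 -0.60, SE 0.41, adjusted p = 0.206), but without PAC replicate 3 the difference was called (-0.94, adjusted p = 0.0336). Gata4, a related factor that acts earlier in the gonad, was at 0.365 to 0.577 CPM in PAC, 0.0273 to 0.0904 in RS and 1.84 to 3.31 in ES.

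The homeobox genes Rhox5 and Rhox8 lie on the X chromosome and are controlled by androgen in Sertoli cells. Rhox5 was at 0.995, 0.694 and 0.144 CPM in PAC, 0.121, 0.164 and 0.117 in RS, and 5.35, 6.66 and 4.26 in ES. Again PAC replicate 3 was within the RS values. Rhox8 was at 0.218, 0.365 and 0.396 CPM in PAC, 0.0301, 0.0546 and 0 in RS, and 4.16, 3.64 and 5.20 in ES (adjusted p = 4.09e-06 between ES and RS). Its 7.03 was the highest fitted log2 change between ES and RS, but RS held 3 counts in all, so the size depends on the fit's prior count. Cited1, a transcription coregulator, and Mro, a gene first described in male gonads, were higher in ES than in RS by 4.59 (SE 0.36) and 4.05 (SE 0.35) on the log2 scale.

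Among the hormone genes, 5 of 7 could be tested. All 5 were called higher in ES than in RS and than in PAC (24.5% and 30.6% of all features). Of these, Shbg and Hsd17b1 passed the filter for low counts through their ES libraries, and the filter removed Fshr and Amh. Fshr, the receptor for follicle-stimulating hormone and a defining Sertoli cell gene, had 2 counts in PAC replicate 2, 2 in ES replicate 3 and none in the other libraries. Amh, anti-Müllerian hormone, which is abundant in immature Sertoli cells, ran the other way. It had 7, 10 and 6 counts in PAC, none in RS and 1, 3 and 2 in ES. Its mean in PAC was 0.266 ± 0.0857 CPM (SD, n = 3), at least 3.08-fold higher than in RS against a floor of 3 counts per library, and every ES library was below every PAC library (35.5% of all features).

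Amhr2 was abundant and differed in pattern from most of the genes. It was at 59.6, 39.0 and 21.4 CPM in PAC, 49.6, 48.7 and 44.7 in RS, and 221, 190.0 and 147 in ES. Its RS libraries lay within the range of PAC, and ES was above both. The log2 fold change was 0.25 (SE 0.30, adjusted p = 0.463) between RS and PAC and 1.96 (SE 0.31, adjusted p = 0.000549) between ES and RS. Only Tjp1 and Gdnf among the tested genes had a smaller change between ES and RS. Without PAC replicate 1 the difference between RS and PAC was called, as given above, and without PAC replicate 3 it was -0.05.

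Inha and Inhbb encode the subunits of inhibin B, the Sertoli cell product that restrains follicle-stimulating hormone. Inha was at 6.81, 4.53 and 2.99 CPM in PAC, 1.99, 2.10 and 1.93 in RS, and 21.6, 19.4 and 19.7 in ES. Its ES libraries were within a narrow range, 10.1-fold above RS (log2 3.33, SE 0.27, adjusted p = 5.41e-06). Inhbb spread more: 5.35, 3.18 and 0.829 CPM in PAC, 0.362, 0.355 and 0.496 in RS, and 15.2, 10.5 and 7.24 in ES (log2 4.75 between ES and RS, SE 0.62, adjusted p = 0.000186). Shbg, the gene of androgen-binding protein, totalled 25 counts in PAC, a single count in RS (1) and 110 in ES. Hsd17b1, an enzyme that converts estrone to estradiol, had 19, 2 and 57. Both were called in all 3 comparisons.

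**Figure D2:**
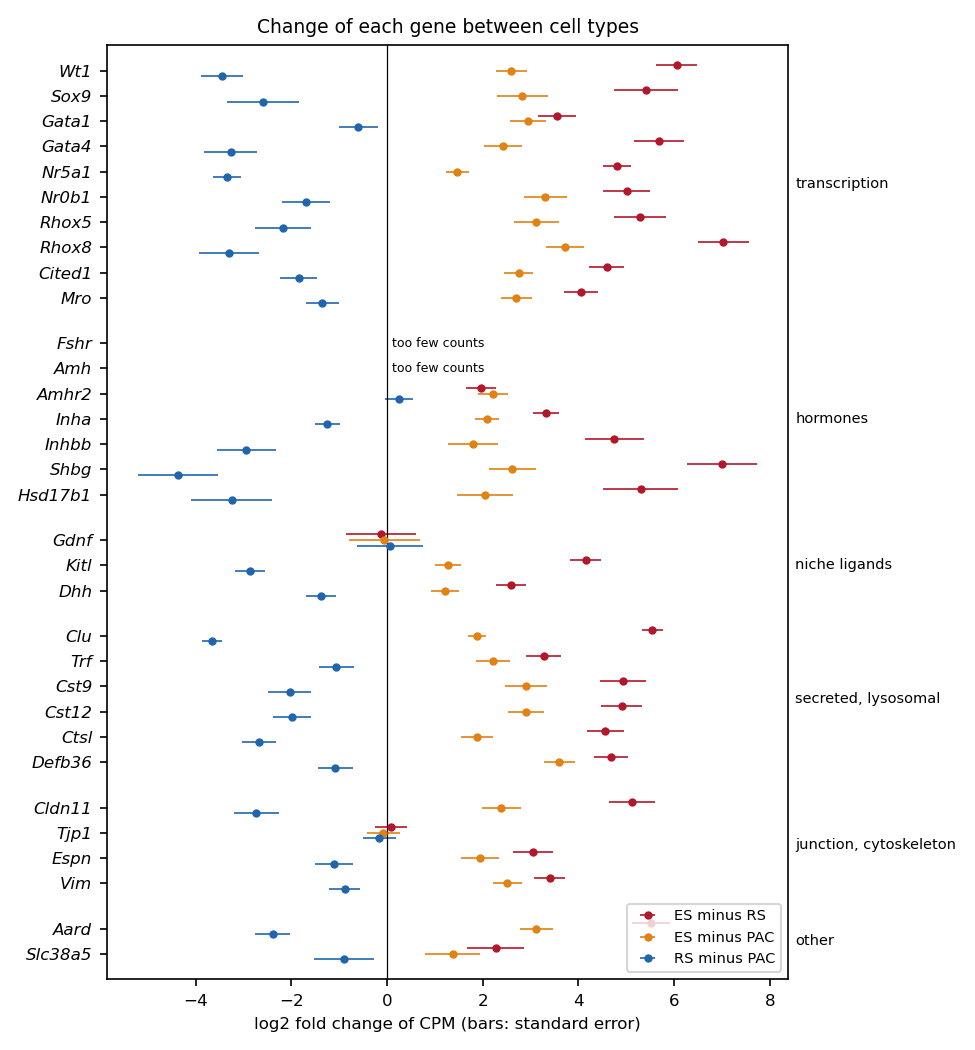
Log2 fold change of CPM for each tested gene, with points for the estimate and bars for 1 standard error, for ES minus RS, ES minus PAC and RS minus PAC. Most red points lie between 2 and 7 and most blue points below 0, while the 3 points of Gdnf and of Tjp1 lie at 0 within their errors.

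The niche ligands divided. Gdnf, the ligand that keeps spermatogonial stem cells undifferentiated, was at 0.187, 0.146 and 0.432 CPM in PAC, 0.0603, 0.382 and 0.350 in RS, and 0.324, 0.222 and 0.189 in ES. All groups overlapped, and the log2 change between ES and RS was -0.13 (SE 0.73, adjusted p = 0.902). With 22, 28 and 15 counts in the 3 cell types, a change of 2-fold in either direction was not detectable at this depth. Kitl, the ligand of the KIT receptor on spermatogonia, was at 3.51, 2.78 and 3.03 CPM in PAC, 0.422, 0.382 and 0.467 in RS, and 4.70, 9.55 and 8.42 in ES. ES replicate 1 was nearest to PAC. Kitl rose 17.7-fold from RS to ES (log2 4.15, SE 0.32, adjusted p = 4.27e-06) but was only 2.43-fold higher in ES than in PAC (log2 1.28, SE 0.27, adjusted p = 0.00124). Dhh, the hedgehog ligand that Sertoli cells send to Leydig and peritubular cells, was at 4.51, 2.81 and 1.98 CPM in PAC, 1.05, 1.39 and 1.14 in RS, and 8.05, 7.68 and 5.96 in ES. Its change between ES and PAC was 2.32-fold (log2 1.21, SE 0.29, adjusted p = 0.00306), the smallest among the genes called.

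The 6 secreted and lysosomal genes were called in all 3 comparisons. They were higher in ES than in RS and than in PAC (24.5% and 30.6% of all features) and lower in RS than in PAC (34.2%). Clu, clusterin, a secreted chaperone, lies on chromosome 14 (65968483 to 65981548, GRCm38.p6). It was at 33.9, 25.6 and 21.9 CPM in PAC, 2.29, 2.05 and 2.10 in RS, and 84.6, 110.0 and 105 in ES. It had the smallest error of all 30 genes, with a log2 change of -3.66 (SE 0.20, adjusted p = 1.08e-07) between RS and PAC and 1.88 (SE 0.18, adjusted p = 4.7e-06) between ES and PAC.

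The cystatins Cst9 and Cst12 lie on chromosome 2 (148835147 to 148838737 and 148789365 to 148793432). Cst9 was at 22.3, 13.6 and 5.05 CPM in PAC, 2.71, 3.96 and 3.39 in RS, and 101, 122 and 84.7 in ES. Cst12 was at 11.9, 6.51 and 3.10 CPM in PAC, 1.57, 1.86 and 2.02 in RS, and 56.6, 59.7 and 46.2 in ES. In both genes PAC replicate 1 was highest and replicate 3 lowest. The log2 changes were 4.93 (SE 0.49) and 4.90 (SE 0.43) between ES and RS, 2.91 in both genes between ES and PAC, and -2.03 and -1.98 between RS and PAC.

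Ctsl, a lysosomal protease that Sertoli cells secrete, was at 29.2, 21.5 and 9.95 CPM in PAC, 3.56, 3.39 and 2.51 in RS, and 88.8, 79.6 and 55.6 in ES. It rose 23.7-fold from RS to ES (log2 4.56, SE 0.39, adjusted p = 1.23e-05). Defb36, a beta-defensin gene, was nearly constant within ES, at 17.1, 17.7 and 17.0 CPM, against 1.90, 1.54 and 0.793 in PAC and 0.874, 0.355 and 0.789 in RS. Its 12.2-fold excess in ES over PAC was next to the highest, that of Rhox8 (13.2-fold). Trf, transferrin, which carries iron to germ cells, was at 3.67, 1.75 and 1.26 CPM in PAC, 1.39, 0.874 and 0.964 in RS, and 11.3, 10.8 and 9.04 in ES. PAC and RS overlapped in both Defb36 and Trf, and their calls between RS and PAC (adjusted p = 0.0181 and 0.0209) were lost without PAC replicate 1 (0.0895 and 0.144) or RS replicate 2 (0.0769 and 0.0787). That of Defb36 was also lost without PAC replicate 2 (0.0512) and that of Trf without RS replicate 3 (0.0682). Both were lost with upper-quartile factors (0.0765 and 0.0882).

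Per length, Cst9 was the most abundant of the 32 genes in ES, at 130 ± 29.9 FPKM (fragments per kilobase and library size; SD, n = 3), followed by Cst12 at 86.1 ± 13.1 and Clu at 48.6 ± 11.3. Amhr2 (39.1 ± 3.45 FPKM) and Ctsl (38.8 ± 6.99) did not differ beyond their spread, nor did Defb36 (32.1 ± 3.74) and Aard (31.4 ± 5.37). In RS the order was another: Amhr2 led with 11.8 ± 0.681 FPKM, then Tjp1 with 6.30 ± 0.463 and Cst9 with 5.33 ± 0.959, and the ranges of Tjp1 and Cst9 overlapped.

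The junction and cytoskeleton genes held the clearest exception. Tjp1, which encodes the tight junction scaffold ZO-1 and is expressed in many cell types, lies on chromosome 7 (65296165 to 65527850). It was at 18.2, 28.4 and 43.7 CPM in PAC, 27.6, 24.1 and 28.8 in RS, and 16.4, 30.1 and 38.7 in ES. All 3 cell types overlapped. The log2 changes were 0.08 (SE 0.34, adjusted p = 0.862) between ES and RS, -0.08 between ES and PAC and -0.16 between RS and PAC. Cldn11, a claudin of the Sertoli cell tight junction, did follow the other genes, with 2.95, 2.49 and 0.721 CPM in PAC, 0.301, 0.328 and 0.292 in RS, and 9.57, 13.8 and 9.23 in ES (log2 5.12 between ES and RS, SE 0.48, adjusted p = 1.34e-05).

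Espn, an actin-bundling protein of the ectoplasmic specialization, was at 4.20, 3.11 and 3.50 CPM in PAC, 2.02, 1.39 and 1.61 in RS, and 6.11, 12.9 and 22.5 in ES. Its ES libraries spanned more than those of any other tested gene, with a coefficient of variation of 59.5%, and ES replicate 1 was lowest. Vim, the intermediate filament of Sertoli cells, was at 1.77, 1.35 and 1.12 CPM in PAC, 0.753, 0.492 and 1.05 in RS, and 6.22, 8.44 and 9.61 in ES. Between RS and PAC the calls of Espn and Vim (adjusted p = 0.0282 and 0.0269) were lost without PAC replicate 1 (0.0847 and 0.106) or RS replicate 2 (0.0907 and 0.118). That of Vim was lost without RS replicate 1 (0.0693), and that of Espn without PAC replicate 3 (0.0521) or RS replicate 3 (0.075). With upper-quartile factors both were lost (0.0853 and 0.121), and with total counts that of Espn (0.0543).

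Of the 2 other genes, Aard, an alanine and arginine rich protein of Sertoli cells, behaved like the cystatins, with 8.27, 5.88 and 2.45 CPM in PAC, 0.904, 1.09 and 1.17 in RS, and 44.6, 49.3 and 51.2 in ES (log2 5.51 between ES and RS, SE 0.40, adjusted p = 4.57e-06). Slc38a5, an amino acid transporter, was at 0.342, 0.365 and 0.108 CPM in PAC, 0.151, 0.109 and 0.175 in RS, and 0.973, 0.755 and 0.426 in ES. Its ES libraries were above all PAC libraries, but the difference did not pass the test (log2 1.37, SE 0.57, adjusted p = 0.0513), and it did so without ES replicate 3 (1.63, adjusted p = 0.0416). The 6 genes on the X chromosome had a median log2 change of 4.80 between ES and RS, and the 24 on autosomes 4.72.

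Whether the genes moved by 1 factor was asked with a second fit, in which the summed counts of 12 of the 32 genes replaced the library size. These reference genes were Wt1, Sox9, Cst9, Cst12, Amhr2, Aard, Rhox5, Rhox8, Fshr, Gata1, Defb36 and Cldn11, and a log2 difference of 0 means a change by the factor of the reference. Between ES and PAC 5 of 30 genes were apart from it (80% of all features were): Gdnf, Tjp1, Kitl, Dhh and Nr5a1, all lower. Gdnf was lower by 8.15-fold (log2 -3.03, SE 0.91, adjusted p = 0.0034) and Tjp1 by 8.99-fold (log2 -3.17, SE 0.62, adjusted p = 0.000108). Kitl, Dhh and Nr5a1 were lower by 2.96-fold, 2.76-fold and 2.58-fold. For the other 25 genes no difference was shown, but the median interval reached 1.05 to either side on the log2 scale, so 2-fold departures could go unseen. Without PAC replicate 3 the number apart was 9.

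Between ES and RS 23 of 30 genes were apart from the 12 reference genes, 20 higher and 3 lower (90.1% of all features were apart), and between RS and PAC 17 were, 1 higher and 16 lower (50.7% of all features). The 3 lower between ES and RS were Amhr2 (log2 -3.06, SE 0.58, adjusted p = 1.48e-07), Gdnf (-3.07, SE 0.89, adjusted p = 0.00212) and Tjp1 (-2.87, SE 0.62, adjusted p = 0.000246). Amhr2 weighed heavily in this reference. It made up 84.1% to 87.2% of the summed reference counts in RS, 53.4% to 60.5% in PAC and 38.5% to 46.7% in ES.

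With Amhr2 taken out of the reference, 11 of 30 genes were apart between ES and RS (97.5% of all features), 8 between ES and PAC (83.2%) and 4 between RS and PAC (64.2%). Between ES and RS, Amhr2, Dhh, Espn, Gata1, Gdnf, Inha, Slc38a5, Tjp1, Trf and Vim were lower than the reference and Rhox8 higher. Tjp1 was then 30.3-fold and Gdnf 32.4-fold below the reference, Amhr2 8.34-fold, and Dhh 5.34-fold. Between ES and PAC Clu, Ctsl and Espn joined the 5 genes named above, all lower. Amhr2 (log2 2.23, SE 0.56, adjusted p = 0.000183) and Tjp1 (log2 1.23, SE 0.55, adjusted p = 0.0401) were higher in RS than PAC relative to the reference, and Clu and Nr5a1 lower. With Clu alone as the reference 14, 11 and 19 of 29 genes were apart (98.6%, 77% and 93.7% of all features). Gdnf and Tjp1 were lower between ES and RS and between ES and PAC with all 3 references. Amhr2 was lower between ES and RS with the summed reference, which for Amhr2 is the same fit in both forms since its own counts are left out, and with Clu alone.

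**Figure D3:**
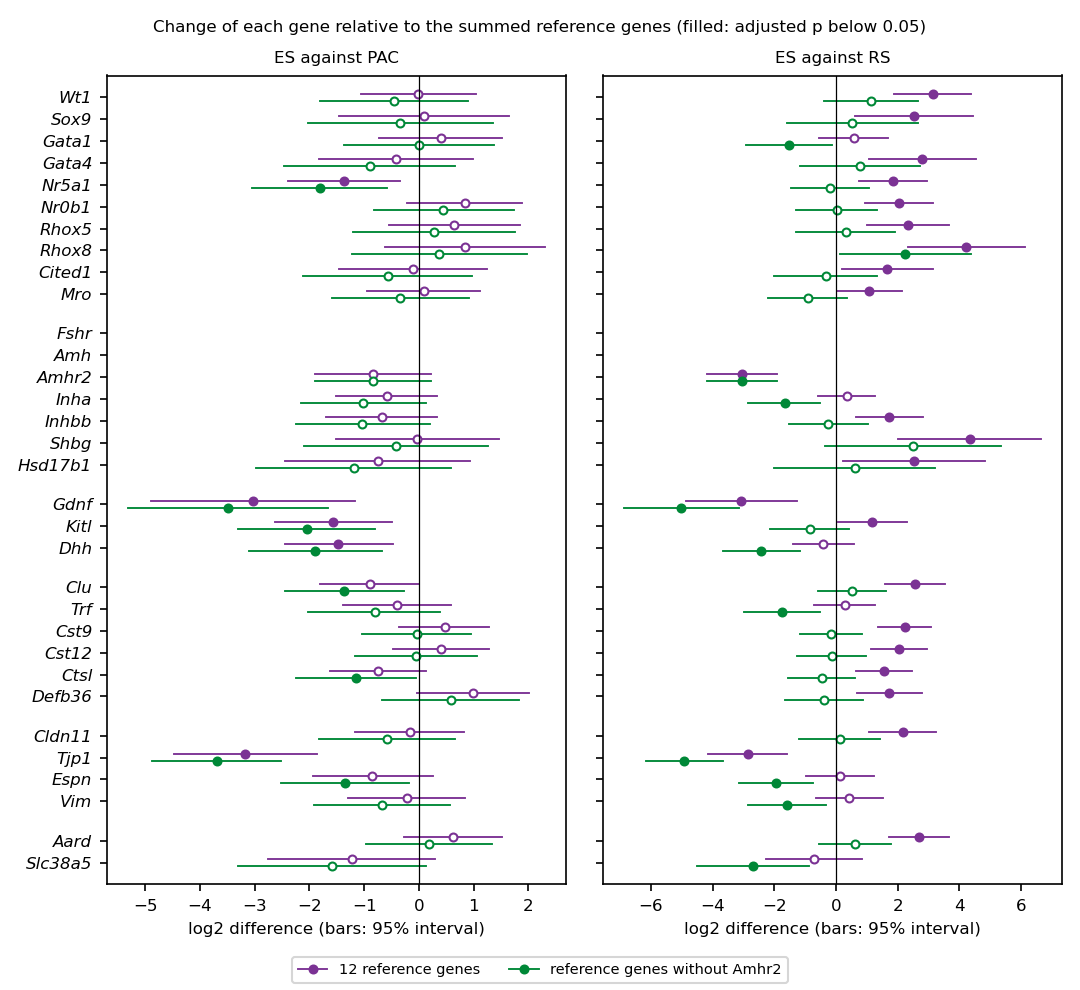
Log2 difference of each tested gene from the summed reference genes, between ES and PAC (left) and ES and RS (right), with 12 reference genes (purple) and without Amhr2 (green); bars are 95% intervals and filled points have an adjusted p below 0.05. On the left 5 purple points are filled; on the right 23 purple and 11 green points are filled, and Gdnf and Tjp1 lie below 0 with both references. Amhr2 has the same value with both by construction.

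Ratios between pairs of genes within a library do not depend on how libraries are scaled. The pairs, with Cst9 as the common divisor, were chosen after the values were seen and are given as a description. The FPKM ratio of Cst9 to Cst12 was 1.5, 1.66 and 1.30 in PAC, 1.38, 1.70 and 1.34 in RS, and 1.42, 1.63 and 1.46 in ES. Of the 9 ratios the highest was 1.31 times the lowest, while Cst9 itself changed 30.5-fold between RS and ES. Aard over Cst9 stayed between 0.140 and 0.307.

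Clu over Cst9 was 0.577, 0.715 and 1.66 in PAC, 0.196 to 0.320 in RS and 0.318 to 0.472 in ES, a span of 8.44-fold. Amhr2 over Cst9 was 0.482 to 0.659 in PAC, 1.90 to 2.85 in RS and 0.256 to 0.356 in ES, a span of 11.1-fold. Tjp1 over Cst9 was 0.109, 0.258 and 1.04 in PAC, 0.929 to 1.55 in RS and 0.0215 to 0.0528 in ES, a span of 72.2-fold. In Amhr2 over Cst9 the 3 cell types did not overlap, and in Tjp1 over Cst9 PAC replicate 3 lay within RS.

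**Figure D4:**
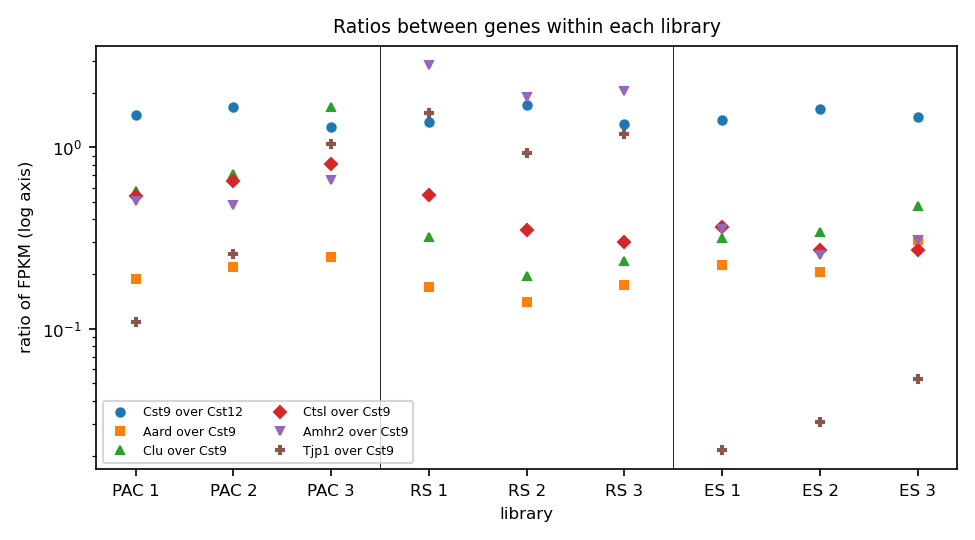
Ratio of FPKM between 2 genes in each of the 9 libraries, on a log axis, for 6 pairs. Cst9 over Cst12 stays between 1.30 and 1.70 in all libraries, while Amhr2 over Cst9 is highest in RS and Tjp1 over Cst9 is lowest in ES.

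The PAC libraries differed among themselves in these genes. CPM in PAC replicate 1 was a median of 2.33 times that in replicate 3 over the 30 tested genes, from 0.417 for Tjp1 to 6.90 for Rhox5, and 18 of 30 were at least 2 times higher. Over all features with counts in both, the median was 1.02, and 6.76% were at least 2 times higher. The ratio was below 1 in 6 of the 30 genes, Tjp1, Gdnf, Rhox8, Hsd17b1, Cited1 and Gata4, named here after their values were seen. The ES libraries showed no such gradient: the median of replicate 1 over replicate 3 was 1.02 for these genes and 1.03 for all features. The summed level of 9 Leydig cell genes was 140.0, 106 and 143 CPM in PAC replicates 1 to 3 and did not follow the order of the Sertoli cell genes. No test was made of the difference between single libraries.

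Genes of other somatic cells moved between the cell types in other ways. The summed CPM of all 32 Sertoli cell genes was 232, 178 and 132 in PAC, 100, 95.6 and 96.3 in RS, and 776, 822 and 710.0 in ES. Without Amhr2 and Tjp1, left out after their values were seen, it was 155, 110.0 and 67.0, then 22.8, 22.7 and 22.9, then 538, 602 and 524. The 9 Leydig cell genes summed to 106 to 143 CPM in PAC, 2.10 to 2.25 in RS and 19.7 to 26.3 in ES, and all 9 were called lower in ES than in PAC, lower in RS than in PAC and higher in ES than in RS (33.7%, 34.2% and 24.5% of all features). Insl3, the Leydig cell peptide, was at 26.3 ± 6.83 CPM in PAC, 0.143 ± 0.0419 in RS and 1.86 ± 0.589 in ES (SD, n = 3). The Sertoli cell genes were thus highest in ES and the Leydig cell genes in PAC, and both were lowest in RS.

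The 11 macrophage and blood genes summed to 5.51 to 6.94 CPM in PAC, 18.5 to 22.1 in RS and 172 to 272 in ES. Of the 10 tested, 8 were called higher in ES than in RS (24.5% of all features) and 10 higher in ES than in PAC (30.6%), with none lower, and 7 were higher in RS than in PAC (38.2% of all features). Hbb-bs, a beta-globin gene of red cells, went from 1.13 ± 0.394 CPM in RS to 85.3 ± 19.4 in ES (SD, n = 3). The globin genes Hba-a1 and Hba-a2 were at 48.9 and 32.5 CPM in ES, where the summed level had a mean of 222. The macrophage genes C1qa, C1qb and C1qc rose more from PAC to RS (log2 4.14, 2.71 and 2.98) than from RS to ES (1.47, 1.94 and 1.18). Lyz2 rose by 1.15 and 1.30. Csf1r and Adgre1 were called higher in RS than in PAC but not between ES and RS. These genes are named after their values were seen. The 11 peritubular and vascular genes summed to 8.19 to 11.2 CPM in PAC, 17.2 to 27.5 in RS and 24.0 to 27.5 in ES. Of 9 tested, Myh11 and Vwf were higher and Cnn1 and Tek lower in ES than in RS (24.5% and 22.1% of all features), named here after their values were seen. All but Lhcgr, at 0 in RS, had counts in every cell type among these 3 lists. The part of other cell types in the change of the Sertoli cell genes was not tested.

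**Figure D5:**
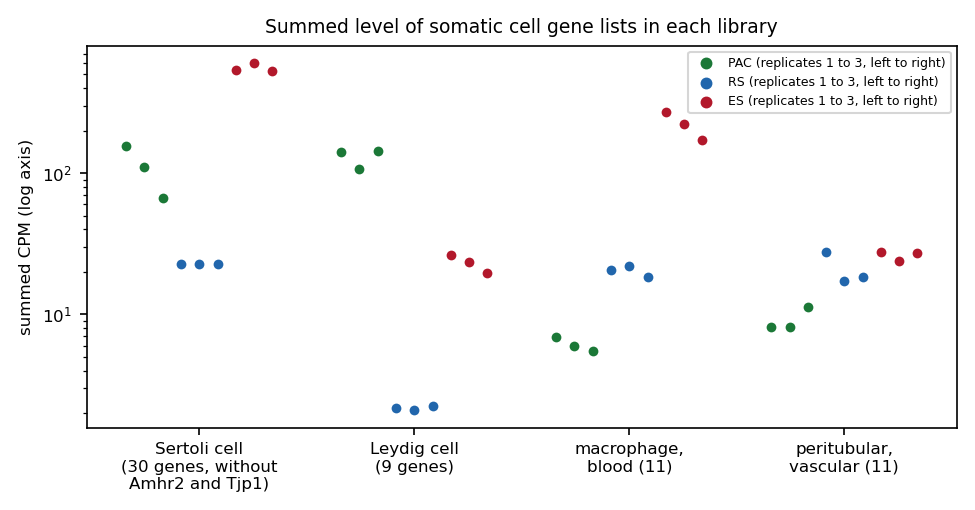
Summed CPM of 4 gene lists in each library, on a log axis, with replicates 1 to 3 from left to right within a cell type. Sertoli cell genes without Amhr2 and Tjp1 are at 524 to 602 in ES and 22.7 to 22.9 in RS, Leydig cell genes are highest in PAC, and macrophage and blood genes are highest in ES.

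A further 25 genes known from Sertoli cells, many of them also expressed elsewhere, were less uniform, and 21 could be tested. Between ES and RS 13 were called higher and 1 lower, Jam2 (24.5% and 22.1% of all features), with a median log2 change of 1.79, against 4.71 for the 30 genes above. Between ES and PAC 9 were higher and 1 lower, Cdh2 (30.6% and 33.7%), with a median of 0.78, and between RS and PAC 6 were higher and 11 lower (38.2% and 34.2%). Dmrt1, Etv5, F11r, Gja1, Sox8 and Tsx were called higher in ES than in both other cell types and lower in RS than in PAC. They are named here after their values were seen. Their log2 changes between ES and RS ran from 1.93 (Dmrt1) to 5.32 (Gja1). The other tested genes of this list were not called in that way in all 3 comparisons. The 3 most abundant of the list were Cdh2, Scarb1 and Nectin2. Cdh2, N-cadherin, was at 118 ± 12 CPM in PAC, 39.1 ± 4.41 in RS and 42.1 ± 5.19 in ES (SD, n = 3). Scarb1, a lipoprotein receptor by which Sertoli cells take up cell remnants, was at 32.1 ± 2.03, 50 ± 1.53 and 54.9 ± 5.25. Nectin2, an adhesion protein on the Sertoli side of the ectoplasmic specialization, rose at each step, from 8.10 ± 1.57 to 30.6 ± 2.14 and 106 ± 21.7 (log2 1.92, SE 0.19, adjusted p = 5.03e-06 for RS against PAC, and 1.79, SE 0.18, adjusted p = 1.97e-05 for ES against RS). Jam2, a junction protein named after its values were seen, was higher in RS than in PAC by 0.82 (SE 0.14, adjusted p = 0.000253) and lower in ES than in RS by -0.70 (SE 0.14, adjusted p = 0.00153).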

How the data were processed

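The 9 libraries (3 each of PAC, RS and ES) were grouped by their titles. Per the submitters' processing notes HISAT2, StringTie and GRCm38.p6 were used; their versions and order, and how reads with several matches were handled, are not given here. The deposited table holds estimated counts, not normalised by the authors (18.85% of values are not whole, among them values of Amhr2, Dhh, Ctsl and Rhox8), and they were rounded for the tests. The authors also deposited FPKM values, whose lengths and totals are not stated. Per the labels' protocols the libraries keep strand; whether counting used it is not given. Rhox5, Rhox8, Cst9, Cst12 and Defb36 have close relatives that could share reads, and Defb36 overlaps Gm31618 (0.384, 0.507 and 0.142 CPM in PAC, RS and ES).

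Features passing edgeR's filterByExpr (minimum count 10; 26030 of 50493) were compared across all 9 libraries by the quasi-likelihood test of edgeR (robust fit, two-sided, TMM, Benjamini-Hochberg over all features, called below 0.05). Levels are CPM after TMM scaling. In the reference fit a reference gene's own counts were left out of its sum. Scripts were tested on simulated data. The genes and lists were chosen with earlier results of these data known, and all 32 genes were to be named; from other lists, the 3 with the highest mean CPM. None of the RefSeq non-coding transcripts could be matched to these genes. The floor of 3 counts covers counting error alone, because reads are not separate molecules. Alternatives were other scalings, filters, DESeq2, limma on log2(FPKM + 1) or log2(FPKM + 0.1), a replicate block, fits of 2 cell types, other references and each library left out. The tools were Python 3.11.15 with matplotlib 3.10.9 and pandas 2.3.3, and R 4.3.3 with DESeq2 1.42.0, edgeR 4.0.16 and limma 3.58.1.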

Additional observations from a re-analysis of the deposited data

How the results depend on the processing

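The numbers of genes called higher in ES than in RS and than in PAC stayed within 1.5 times under every alternative. The size of the change depended more on the measure and, for FPKM, on the constant added before taking logs. Such a constant lowers the fold changes of genes with low values. Between ES and RS the median log2 change was 4.71 in the main fit. It was 1.83 with limma on log2(FPKM + 1), 3.67 on log2(FPKM + 0.1) (25 genes each) and 1.70 on log2(FPKM + 1) with no filter (32 genes). The number lower in RS than in PAC was 25, against 21 with upper-quartile factors and 20 in the fit of these 2 cell types (24 genes tested). It was 14 and 13 with limma on log2(FPKM + 1) with and without a filter. The limma fit without a filter called 1 gene lower in ES than in PAC, Amh. Leaving out libraries gave 0 to 1 genes higher in RS than in PAC, Amhr2 being called without PAC replicate 1, and 4 to 9 genes apart from the reference between ES and PAC, 9 without PAC replicate 3. Apart from the reference were 11, 8 and 4 genes without Amhr2 in it (ES against RS, ES against PAC, RS against PAC), against 23, 5 and 17 with it, and 14, 11 and 19 with Clu alone. The replicate block gave 28, 27 and 25 genes called, and 23, 6 and 17 apart from the reference. Correlations of same-numbered libraries ran from -0.04 to 0.27. Libraries with different numbers were not compared, so whether the replicate numbers pair the samples was not decided. ES replicate 1 changed no count of calls by over 1.5 times. The p-values measure the spread between these libraries, and low counts limit Fshr, Amh, Shbg, Hsd17b1, Rhox8 and Sox9.

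Single genes changed sign as follows, with the cause not tested and none of these Gdnf, Tjp1 and Amhr2 values called with the new sign on the library scale. Gdnf between ES and RS became 0.02 with DESeq2 size factors, 0.03 with DESeq2 and 0.01 with the replicate block. Tjp1 there became -0.21 with total counts, -0.02 with the replicate block, and -0.47, -0.57 and -0.47 with limma on FPKM (pseudocount 1, 0.1, and 1 with no filter). Between ES and PAC, Gdnf became 0.03 with DESeq2 size factors, 0.25 with upper-quartile factors, 0.04 with DESeq2 and 0.03 with the replicate block. Tjp1 became 0.23 with upper-quartile factors, 0.02 with a minimum count of 50 and 0.13 in the fit of these 2 cell types. Between RS and PAC, Tjp1 became 0.16 with upper-quartile factors and 0.17, 0.21 and 0.17 with limma on FPKM. Leaving out libraries gave Gdnf -0.60 to 0.11, -0.35 to 0.51 and -0.20 to 0.66 in the 3 comparisons. It gave Tjp1 -0.21 to 0.36, -0.37 to 0.27 and -0.43 to 0.20, and Amhr2 between RS and PAC -0.05 to 0.65.

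Relative to the reference, many values changed sign when the reference changed. Without Amhr2 in it, these did between ES and RS: Cited1 (-0.34), Cst12 (-0.14), Cst9 (-0.16), Ctsl (-0.47), Defb36 (-0.39), Espn (-1.95), Gata1 (-1.53), Inha (-1.67), Inhbb (-0.25), Kitl (-0.86), Mro (-0.92), Nr5a1 (-0.20), Trf (-1.76) and Vim (-1.60). For ES against PAC they were Cst12 (-0.05), Cst9 (-0.03), Mro (-0.34) and Sox9 (-0.34). Between RS and PAC they were Cst12 (0.09), Cst9 (0.12), Defb36 (0.96), Dhh (0.53), Espn (0.60), Gata1 (1.53), Inha (0.66), Mro (0.59), Nr0b1 (0.43), Slc38a5 (1.11), Tjp1 (1.23), Trf (0.95) and Vim (0.92). With Clu alone, those between ES and RS were Aard (-0.02), Cited1 (-0.89), Cldn11 (-0.40), Cst12 (-0.63), Cst9 (-0.61), Ctsl (-0.94), Defb36 (-0.83), Espn (-2.53), Gata1 (-1.95), Inha (-2.18), Inhbb (-0.72), Kitl (-1.41), Mro (-1.49), Nr0b1 (-0.51), Nr5a1 (-0.69), Rhox5 (-0.20), Trf (-2.23) and Vim (-2.14). In ES against PAC the values were Amhr2 (0.43), Cited1 (0.84), Cldn11 (0.58), Ctsl (0.09), Gata4 (0.50), Hsd17b1 (0.17), Inha (0.26), Inhbb (0.09), Shbg (0.80), Trf (0.43), Vim (0.63) and Wt1 (0.76). Between RS and PAC the values were Aard (1.33), Cited1 (1.73), Cldn11 (0.98), Cst12 (1.77), Cst9 (1.73), Ctsl (1.03), Defb36 (2.60), Dhh (2.33), Espn (2.52), Gata1 (3.11), Gata4 (0.24), Hsd17b1 (0.11), Inha (2.45), Inhbb (0.81), Kitl (0.76), Mro (2.35), Nr0b1 (2.03), Nr5a1 (0.26), Rhox5 (1.54), Rhox8 (0.10), Slc38a5 (2.76), Sox9 (0.89), Tjp1 (3.37), Trf (2.66), Vim (2.77) and Wt1 (0.22). The replicate block turned Espn (-0.14, ES against RS), Shbg (0.03, ES against PAC) and Tjp1 (0.16, RS against PAC). Leaving out libraries turned, with the range given, Espn (-0.59 to 0.51) between ES and RS. It turned Cited1 (-0.50 to 0.52), Cldn11 (-0.32 to 0.05), Gata4 (-0.74 to 0.31), Mro (-0.14 to 0.23), Shbg (-0.29 to 0.27), Sox9 (-0.36 to 0.46), Vim (-0.50 to 0.11) and Wt1 (-0.21 to 0.18) between ES and PAC, and Gata1 (-0.41 to 0.05), Gdnf (-0.46 to 1.39) and Tjp1 (-0.75 to 0.80) between RS and PAC.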
